A study of Mus musculus with 4 samples.

Results

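The complement system is described here through 9 genes, of the 23337 gene names in each deposited table, chosen by name: C1qa, C1qb, C1qc, Cfp, Cfb, C3, C6, C3ar1 and C5ar1. All 9 were found and all passed the filter of at least 1 TPM (transcripts per 1000000) in at least 2 libraries. The RNA is labelled as coming from liver macrophages, of which the resident ones are called Kupffer cells, sorted from Lyz2cre-RosaYFP reporter mice of both sexes at 6 to 8 weeks of age. In this strain Cre is made from the lysozyme gene Lyz2 and turns on yellow fluorescent protein (YFP) from the Rosa locus. A YFP+ cell has therefore expressed Cre itself or descends from a cell that did. The labels give YFP+ and YFP- as genotype, and that YFP- cells carry the same alleles is inferred from the strain name. There were 2 YFP+ and 2 YFP- libraries, 1 of each with a title starting in M and 1 in FM, letters that the labels do not explain. The labels also do not say whether the libraries came from separate animals, so the p-values measure only the spread between these libraries, which may be technical.

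Complement is a cascade of plasma proteins that tags particles for uptake, attracts leukocytes and punctures membranes. The classical pathway starts when C1q binds, the lectin pathway when ficolins or collectins bind sugars, and the alternative pathway amplifies C3 cleavage on surfaces through factor B and properdin. Hepatocytes make most of the circulating components, while macrophages, Kupffer cells and microglia among them, are a main source of C1q.

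Several facts of the libraries bear on these genes. The 7 Kupffer cell marker genes were detected in every library and summed to 32392 and 29251 TPM in YFP+ libraries, against 5524 and 12947 TPM in YFP- libraries. The 9 microglia markers, Tmem119 and P2ry12 among them, summed to 1006 and 74.7 TPM in YFP+ libraries, against 17388 and 16077 TPM in YFP- libraries. In both YFP- libraries the microglia sum thus exceeded the Kupffer cell sum, and the myelin gene Mbp stood at 626 and 643 TPM there, so the markers go against liver macrophages as the sole content of the YFP- libraries. Of the other 5 brain markers, 4 were listed at 0 in the YFP+ FM library, while all were detected in both YFP- libraries at sums of 662 and 690 TPM. The 8 hepatocyte markers summed to 328 and 711 TPM in YFP+ libraries, against 1383 and 2107 TPM in YFP- libraries. Of these sums Ttr made up 55.5 and 51.9 TPM in YFP+ libraries, against 1053 and 830 TPM in YFP- libraries. Most of the difference between the sums of the M libraries lay in Ttr. Of the 8 genes Ttr alone was called lower by the limma test described below. Apoa1 and Ahsg had higher means in YFP+ libraries, the other hepatocyte markers lower ones. The 5 neutrophil markers found summed to 1517 and 7022 TPM in YFP+ libraries, against 2009 and 3366 TPM in YFP- libraries. S100a8 and S100a9 were higher in YFP+ FM than in YFP- FM, and Retnlg, Camp and Ngp lower. In YFP+ FM, S100a9 alone stood at 4874 TPM. In such bulk RNA, fewer cells of a type and less RNA per cell cannot be told apart. Mean read coverage of a gene at 1 FPKM (fragments per kilobase per 1000000 mapped) was 4.81 and 2.60 in the YFP+ M and FM libraries, and 9.19 and 2.59 in the YFP- M and FM libraries. The number of reads is unknown, so no counting error is given. The YFP+ FM library also had the fewest genes at 1 TPM or more, 7386, against 10302 to 12829 in the other libraries.

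The upstream sequences of 3 of the members called higher are shown first. C1qb, C1qc and C1qa lie in this order within 18700 bases of chromosome 4 (136880145 to 136898844, GRCm38, all on the minus strand), with 3625 bases between C1qb and C1qc and 3002 between C1qc and C1qa. Below are the 250 bases before the RefSeq start (GRCm38.p6) of the neighbours C1qb (chr4:136886201-136886450, minus strand) and C1qc (chr4:136892915-136893164, minus strand), which moved together, and of Cfp (chrX:20931556-20931805, minus strand), which had the largest fold change among the members. Capitals mark the letters searched: GAGGAA, the core bound by the macrophage factor PU.1, TGCTGA, a core of Maf recognition elements, and GAAANNGAA, a pair of interferon regulatory factor cores. Each was searched on both strands, and no matches of different motifs overlapped in these windows.
C1qb: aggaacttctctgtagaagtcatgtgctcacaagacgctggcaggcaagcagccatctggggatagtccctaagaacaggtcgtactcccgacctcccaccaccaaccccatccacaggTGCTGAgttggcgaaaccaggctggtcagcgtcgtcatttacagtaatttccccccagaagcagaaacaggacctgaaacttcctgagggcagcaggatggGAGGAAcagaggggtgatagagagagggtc
C1qc: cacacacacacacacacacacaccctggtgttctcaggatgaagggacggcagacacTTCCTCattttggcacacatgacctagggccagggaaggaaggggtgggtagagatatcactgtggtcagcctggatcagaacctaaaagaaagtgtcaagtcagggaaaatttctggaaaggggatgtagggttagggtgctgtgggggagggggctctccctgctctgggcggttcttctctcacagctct
Cfp: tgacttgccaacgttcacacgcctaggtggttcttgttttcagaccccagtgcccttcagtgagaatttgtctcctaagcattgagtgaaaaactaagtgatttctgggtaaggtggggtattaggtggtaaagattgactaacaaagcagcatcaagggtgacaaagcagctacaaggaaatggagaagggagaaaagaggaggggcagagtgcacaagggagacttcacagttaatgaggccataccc

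The PU.1 core occurred once in each C1q window, 30 to 25 bases before the start in C1qb and on the other strand 193 to 188 bases before the start in C1qc. It was in 2 of the 7 member windows that RefSeq gives, and in 23.3% of 32851 promoters of the same length. The Maf core was found in 4 of the 7, those of C1qb, C3, C3ar1 and C5ar1, and in 16.1% of all promoters. The interferon regulatory factor pair was found in 1, that of C5ar1, and in 7.13% of all promoters. A match describes these letters only.

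Among the members, 4 were called higher and 1 lower in YFP+ libraries by limma with Benjamini-Hochberg adjustment over all 12251 tested genes (threshold 0.05, two-sided). Of all tested genes 0.522% were called higher and 39.5% lower. The median log2 fold change of the members was 0.91, against -1.73 over all tested genes, and 8 of the 9 members lay above that value. Fold changes are YFP+ over YFP- on the log2(TPM + 1) scale, and means are over 2 libraries per group. Because TPM sums to 1000000 in every library, these levels depend on what else a library holds. Other scalings shifted the median of all genes to between -0.11 and -0.01 and are given beside each member whose sign or call they change. With 2 libraries a side, p = 0.333 is the smallest that an exact permutation test can give.

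**Figure D1:**
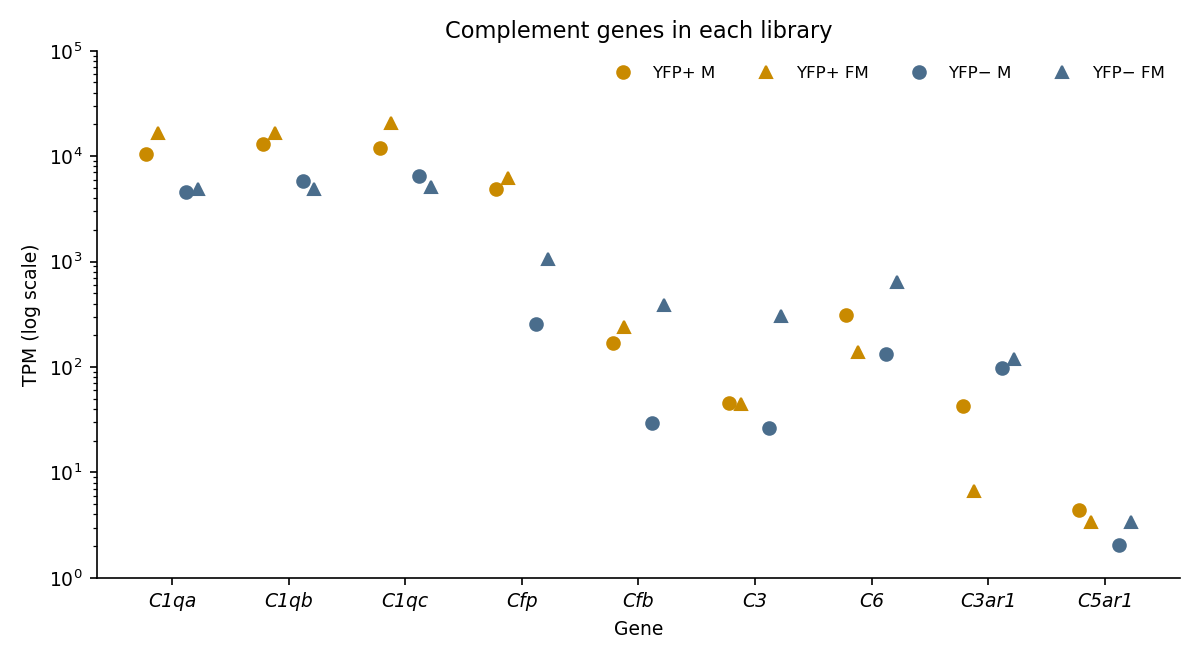
TPM (log axis) of each member gene in the 2 YFP+ libraries (gold, left of each pair) and the 2 YFP- libraries (blue, right), with circles for M and triangles for FM titles. On this scale, C1qa, C1qb, C1qc and Cfp lie higher and C3ar1 lower in both YFP+ than in both YFP- libraries, while Cfb, C3 and C6 overlap; under cyclic loess the C1q genes turn below 0.

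The genes of the 3 chains of C1q, the recognition protein of the classical pathway, were among the most abundant transcripts in every library and were called higher in YFP+ libraries on the deposited values, with the sign turned under cyclic loess. C1qa, the A chain, stood at 10472 and 16699 TPM in the YFP+ M and FM libraries, against 4607 and 4877 TPM in the YFP- M and FM libraries. C1qb, the B chain, was at 13029 and 16502 TPM in YFP+ libraries, against 5862 and 4866 TPM in YFP- libraries. C1qc, the C chain, reached 11926 and 20803 TPM in YFP+ libraries, against 6417 and 5095 TPM in YFP- libraries. For each chain both YFP+ libraries lay above both YFP- libraries, and the highest was YFP+ FM. By TPM the 3 genes ranked between 5 and 11 in YFP+ libraries and between 11 and 18 in YFP- libraries.

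The log2 fold changes of C1qa, C1qb and C1qc were 1.48 (SE 0.57), 1.46 (SE 0.56) and 1.46 (SE 0.55), with limma adjusted p = 0.0289, 0.0291 and 0.0274. Between the M libraries the log2 differences were 1.18, 1.15 and 0.89, and between the FM libraries 1.78, 1.76 and 2.03. The calls were lost without the YFP+ M library (adjusted p = 0.200, 0.253 and 0.193) and without YFP+ FM (0.520, 0.471 and 0.558). They were also lost with a pseudocount of 0.1 (0.0554, 0.0566 and 0.0550), without the filter (0.0605, 0.0600 and 0.0609), when the title start was a block (0.161, 0.162 and 0.159) and under quantile normalization, where the fold changes were 0.45, 0.55 and 0.40. Under median-ratio scaling the fold changes were 3.75, 3.73 and 3.74 with SEs of 2.56 to 2.75, and under cyclic loess -0.15, -0.24 and -0.28.

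C1q is assembled from equal numbers of its 3 chains, and the 3 transcripts stayed close to parity in all libraries. Of the summed C1q TPM, C1qa made up 29.6% and 30.9% in YFP+ libraries, against 27.3% and 32.9% in YFP- libraries. C1qb made up 36.8% and 30.6% in YFP+ libraries, against 34.7% and 32.8% in YFP- libraries. The remainder, C1qc, made up 33.7% and 38.5% in YFP+ libraries, against 38.0% and 34.3% in YFP- libraries. The most abundant chain exceeded the least abundant by 1.24 and 1.26 times in YFP+ libraries, against 1.39 and 1.05 times in YFP- libraries, and for each chain the shares of the groups overlapped. The 3 genes together took 3.54% and 5.40% of all TPM in YFP+ libraries, against 1.69% and 1.48% in YFP- libraries. The nearest genes on either side of the cluster, which encode the ephrin receptors Ephb2 and Epha8, were at or near 0: Epha8 was listed at 0 in all 4 libraries, and Ephb2 was listed at 0 in both YFP+ libraries and stood at 0.053 and 0.42 TPM in YFP- libraries.

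Cfp encodes properdin, which stabilises the C3 convertase of the alternative pathway, and it rose most of the members. Its level was 4852 and 6264 TPM in the YFP+ M and FM libraries, against 255 and 1066 TPM in the YFP- M and FM libraries. The groups were well apart, and the ratio between the libraries of a group was larger in YFP- than in YFP+. The log2 fold change was 3.40 (SE 0.69, limma adjusted p = 0.000146), and the log2 difference was 4.25 for the M pair and 2.55 for the FM pair. Its rank by TPM was 37 and 31 in YFP+ libraries, against 530 and 131 in YFP- libraries. The sign held under every alternative, with fold changes of 3.02 under quantile normalization (adjusted p = 0.102), 2.68 under cyclic loess (0.150) and 5.67 under median-ratio scaling (0.0155). Without the YFP+ FM library the call was lost as well (3.22, adjusted p = 0.0629). The genes on either side, Syn1 and Elk1, stood at 0.64 to 7.13 TPM in YFP+ libraries, against 1.18 to 9.44 TPM in YFP- libraries, and neither was called.

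A ratio of genes within a library does not depend on linear scaling between libraries, but it can depend on the mix of cells. Kupffer cells and microglia both make C1q, and their marker sums given above differed between the groups. The part of this mix in the levels of C1q and Cfp and in their ratio was not tested. Per 100 TPM of C1q (geometric mean of the 3 chains), the libraries held 41.3 and 35.0 TPM of Cfp in YFP+ M and FM, against 4.58 and 21.6 TPM in YFP- M and FM. Both YFP+ libraries were thus above both YFP- libraries. The mean log2 ratio was -1.40 ± 0.17 in YFP+ and -3.33 ± 1.58 in YFP- libraries (SD, n = 2 each), a difference of 1.93 (exact permutation test, two-sided, p = 0.333, the smallest this design allows). The difference was 0.82 without YFP- M and 3.05 without YFP- FM, so its size rests on which YFP- library is used.

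**Figure D2:**
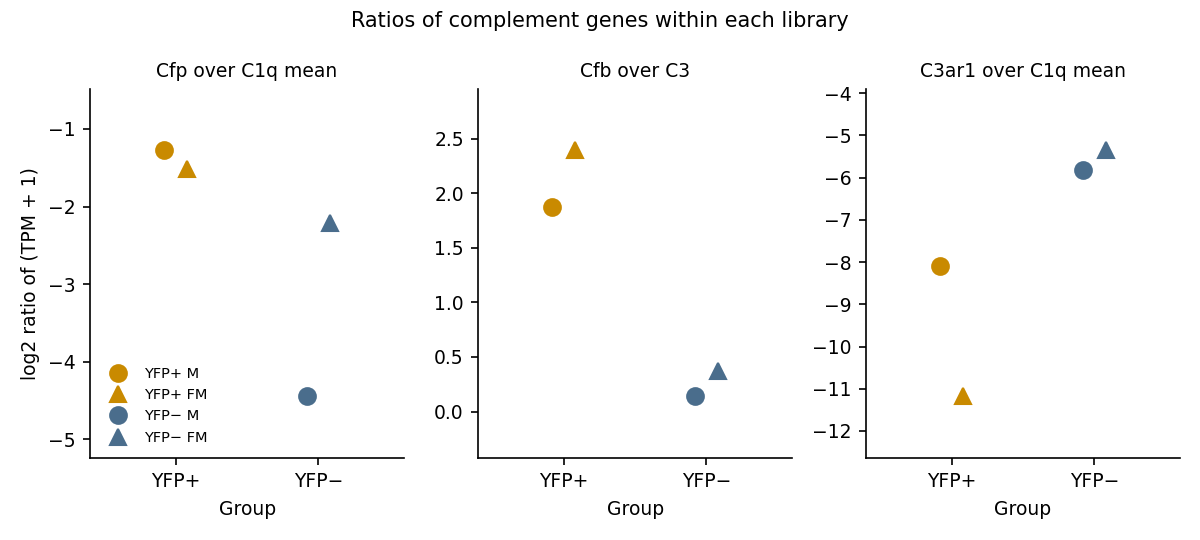
Log2 ratios of (TPM + 1) within each library for Cfp over the mean of C1qa, C1qb and C1qc, Cfb over C3, and C3ar1 over that C1q mean, in YFP+ (gold, left) and YFP- (blue, right) libraries, with circles for M and triangles for FM titles and each panel on its own axis. The groups do not overlap in any panel: Cfp over C1q is -1.28 and -1.51 in YFP+ against -4.45 and -2.21 in YFP- libraries.

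Cfb encodes factor B, the protease of the alternative pathway convertase, and was not called on the deposited values. It stood at 170 and 240 TPM in the YFP+ M and FM libraries, against 29.1 and 390 TPM in the YFP- M and FM libraries. Both YFP+ values lay between the 2 YFP- values, which differed widely. The log2 fold change was 0.91 (SE 0.91, limma adjusted p = 0.390), it turned to -0.94 without the YFP- M library, and the gene was called higher under median-ratio scaling (3.15, adjusted p = 0.0249). C2, which encodes the corresponding protease of the classical and lectin pathways, lies on the same strand of chromosome 17 and ends 88 bases before the start of Cfb. It had a like profile, at 133 and 86.7 TPM in YFP+ libraries, against 27.1 and 263 TPM in YFP- libraries, and was called higher under median-ratio scaling alone of the 3 scalings (2.57, adjusted p = 0.0316). The root mean square distance of the centred log2 profiles of Cfb over the 4 libraries was 0.51 to C2, 0.64 to C4b and 0.96 to C3. The gene listed as Rdbp ends 2 bases from Cfb on the opposite strand. No source used here says whether counting used strand.

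C3 encodes the central component that all pathways cleave, and it too was not called. Its level was 45.9 and 44.9 TPM in the YFP+ M and FM libraries, against 26.4 and 302 TPM in the YFP- M and FM libraries. The YFP+ libraries were nearly equal and the YFP- FM library stood far above the rest. The log2 fold change was -0.97 (SE 0.99, adjusted p = 0.395) and its sign turned under quantile normalization, median-ratio scaling and cyclic loess and without YFP- FM. In YFP+ libraries C3 TPM was 0.388% and 0.249% of the mean C1q chain TPM, against 0.468% and 6.11% in YFP- libraries. The ratio of Cfb to C3 separated the groups although neither gene did, at 3.72 and 5.34 in YFP+ libraries, against 1.10 and 1.29 in YFP- libraries. On the log2(TPM + 1) scale the difference of this ratio was 1.88 (exact permutation test, two-sided, p = 0.333, the smallest possible with 2 against 2 libraries). The ratio was chosen after the values were seen.

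C6 encodes a component of the membrane attack complex that inserts into target membranes. It was at 311 and 140 TPM in the YFP+ M and FM libraries, against 134 and 638 TPM in the YFP- M and FM libraries. The groups overlapped, and the order of the libraries differed between the M and the FM pair. The log2 fold change was -0.49 (SE 0.86, adjusted p = 0.629), and without YFP+ FM or YFP- FM, on FPKM, and under quantile normalization or median-ratio scaling the sign turned. Among the genes of the terminal pathway C6 stood alone in abundance. C7 was listed at 0 in every library, and Hc (component C5), C8a, C8b and C9 stayed at or below 4.20 TPM. C8g, the gamma chain of C8, was at 4.71 and 3.11 TPM in YFP+ libraries, against 3.92 and 2.01 TPM in YFP- libraries. C8g was not called on these values, but was called higher under quantile normalization (2.09, limma adjusted p = 0.0470) and median-ratio scaling (1.99, 0.0219). Cfb, C3 and C6 were alike in being highest in YFP- FM and lowest in YFP- M.

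C3ar1, the receptor for the C3a fragment, was the member that fell on the deposited values. It stood at 42.4 and 6.71 TPM in the YFP+ M and FM libraries, against 97.1 and 120 TPM in the YFP- M and FM libraries. Both YFP+ libraries were below both YFP- libraries, with YFP+ FM far below YFP+ M. The log2 fold change was -2.57 (SE 1.03, limma adjusted p = 0.0365), or 0.84 below the median of all tested genes. The call did not hold without YFP+ FM (-1.33, adjusted p = 0.351), YFP- M (-2.72, 0.244) or YFP- FM (-2.42, 0.432), or when the title start was a block (0.166). It missed the threshold on FPKM (adjusted p = 0.0560) and without the filter (0.0538). Under quantile normalization, median-ratio scaling and cyclic loess the gene kept its sign at -0.99, -0.39 and -1.03 without a call. Relative to C1q the mean log2 ratio of C3ar1 was -9.63 ± 2.19 in YFP+ and -5.59 ± 0.33 in YFP- libraries (SD, n = 2 each), a ratio chosen after the values were seen. C3ar1 is also expressed by microglia, and the microglia marker sums given above follow the same division of the libraries, with YFP+ FM lowest. Their part in the fall of C3ar1 was not tested.

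C5ar1, the receptor for the chemoattractant C5a, had the lowest level of the members. It was at 4.41 and 3.41 TPM in the YFP+ M and FM libraries, against 2.04 and 3.36 TPM in the YFP- M and FM libraries. The YFP+ FM and YFP- FM values were almost equal, so the groups were separate by a narrow margin. The log2 fold change was 0.43 (SE 0.83, adjusted p = 0.661). Its rank by TPM was 7019 and 4727 in YFP+ libraries, against 11250 and 10850 in YFP- libraries. Under the settings that bring the libraries to a common scale the gene was called higher, at 2.20 by quantile normalization (adjusted p = 0.0379), 2.12 by median-ratio scaling (0.0141) and 2.39 by cyclic loess (0.0463). It was the single member called by both quantile normalization and cyclic loess. Mean coverage was only 3.72 to 14.1 reads per base for this gene. Its neighbour Gpr77, which encodes the alternative C5a receptor, stood at 0.82 and 2.52 TPM in YFP+ libraries, against 0.66 and 14.2 TPM in YFP- libraries. It was not called (-0.99), and its sign turned under the same 3 scalings. TPM of C3ar1 exceeded that of C5ar1 by 9.62 and 1.97 times in YFP+ libraries, against 47.6 and 35.6 times in YFP- libraries.

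**Figure D3:**
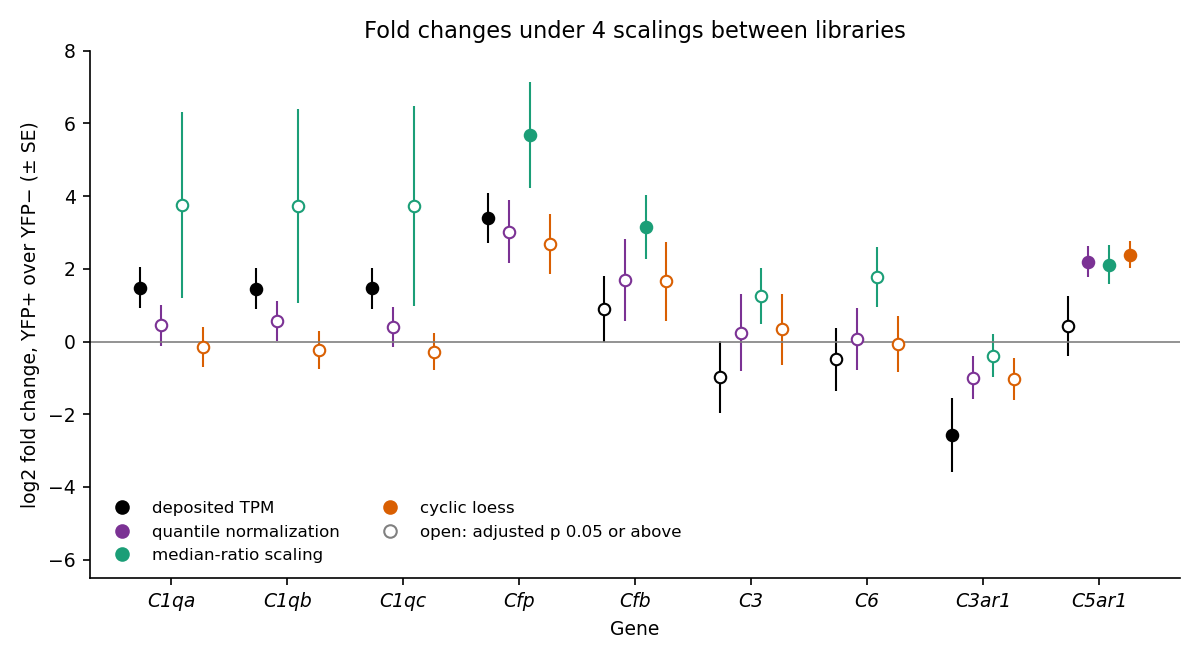
Log2 fold change, YFP+ over YFP- (points, with SE bars), of each member on the deposited TPM and under 3 scalings between libraries, with filled points for a limma adjusted p under 0.05. Cfp stays above 0 and C3ar1 below 0 under all 4, C5ar1 is called under the 3 rescalings, and the C1q genes lie at 1.46 to 1.48 on the deposited values and below 0 under cyclic loess.

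The tested genes of most like profile were sought by the root mean square distance of centred log2(TPM + 1) over the 4 libraries, among 2080 genes with a mean of at least 50 TPM. Nearest to Cfp were Marco, a scavenger receptor (distance 0.32), the chemokine gene Cxcl2 (0.39) and Il1b, interleukin 1 beta (0.42). Nearest to the mean of the C1q genes were the MHC class II gene H2-Ab1 (0.034), the invariant chain gene Cd74 (0.094) and the ferritin light chain gene Ftl1 (0.10). H2-Ab1 stood at 4615 and 7456 TPM in YFP+ libraries, against 2212 and 1951 TPM in YFP- libraries. Among the members the closest pairs were those within C1q, at 0.15 to 0.17, and the most distant pair was Cfp and C3ar1, at 3.21. With 4 libraries these distances are descriptions only.

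Of 41 other complement genes with a name in the files, 24 were tested, of which 2 were called higher and 9 lower in YFP+ libraries. Read against the 0.522% and 39.5% of all tested genes called in these directions, the lower share is near the background. Their median log2 fold change was -1.34, against -1.73 over all tested genes. The higher genes were C4b and Fcna. C4b, component C4 of the classical and lectin pathways, was at 258 and 381 TPM in YFP+ libraries, against 19.6 and 235 TPM in YFP- libraries (2.17, limma adjusted p = 0.0452). Without YFP- M its fold change was 0.42 (adjusted p = 0.702), without YFP- FM 3.93 (0.00808) and without YFP+ FM 1.89 (0.197). C4b and C4a are near-identical, so how their reads were split is uncertain. C4a stood at 6.94 and 8.30 TPM in YFP+ libraries, against 0.82 and 3.77 TPM in YFP- libraries, and was not called on these values (1.54, adjusted p = 0.156). It was called higher under each of the 3 scalings, at 3.15 by quantile normalization (adjusted p = 0.0323), 3.24 by median-ratio scaling (0.00277) and 3.64 by cyclic loess (0.0463), and on FPKM (1.74, 0.0450). Fcna, the lectin ficolin A that starts the lectin pathway, was at 8251 and 6916 TPM in YFP+ libraries, against 1104 and 856 TPM in YFP- libraries. Of the recognition genes listed besides C1q it alone was at such a level, since the ficolin Fcnb and the collectin genes Mbl1, Mbl2, Colec10 and Colec11 stood at or below 27.8 TPM.

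Called lower were 2 of the 4 tested soluble regulators, 0 of the 3 membrane regulators (Cd55, Cd59a and Cr1l) and 4 of the 7 receptors, where 39.5% of all tested genes were called lower. Clu, clusterin, which binds the terminal complex, was at 13.4 and 14.9 TPM in YFP+ libraries, against 182 and 220 TPM in YFP- libraries (-3.73, limma adjusted p = 0.00227). The receptor genes that fell were 4. Itgam (-3.72) and Itgax (-3.11) encode the alpha chains of complement receptors 3 and 4, and Cd93 (-3.61) a lectin-like surface receptor. Cr2 (-1.54, with the sign turned under quantile normalization and cyclic loess) encodes the receptor of C3d on B cells. Cr2 was of low level, at 1.34 and 0.13 TPM in YFP+ libraries, against 3.51 and 3.98 TPM in YFP- libraries. Its fold change lay 0.19 above the median of all tested genes. Itgb2, the beta chain shared by Itgam and Itgax, was not called, at 431 and 407 TPM in YFP+ libraries, against 438 and 1804 TPM in YFP- libraries (-1.08, with the sign turned under median-ratio scaling). Vsig4, the complement receptor of Kupffer cells that binds C3b, was not called either, at 2401 and 1633 TPM in YFP+ libraries, against 1335 and 587 TPM in YFP- libraries (1.16, adjusted p = 0.159). Without YFP- M, Itgb2 was called lower (-2.10, limma adjusted p = 0.0190) and Vsig4 higher (1.75, 0.0173).

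The remaining lower genes were also of low level, at or below 7.04 TPM in every library: the protease gene C1s (-1.65), the regulator C4bp (-1.37), Colec10 (-1.16) and Colec11 (-1.11, with the sign turned under quantile normalization, median-ratio scaling and cyclic loess). Each of these fold changes lay above the median of all tested genes, -1.73. Clu is also expressed by brain cells, Cr2 by B cells, Itgam and Itgax by monocytes and Cd93 by endothelium. This list does not give every source of these genes. The microglia markers, at 17388 and 16077 TPM in YFP- libraries, had larger sums there than the monocyte markers given below. The 4 B cell markers summed to 513 and 75.7 TPM in YFP+ libraries, against 589 and 570 TPM in YFP- libraries, and the microglia and brain marker sums above were lower in YFP+ libraries. The 4 monocyte markers summed to 158 and 167 TPM in YFP+ libraries, against 621 and 552 TPM in YFP- libraries. The 6 markers of sinusoidal endothelium summed to 242 and 127 TPM in YFP+ libraries, against 776 and 776 TPM in YFP- libraries. Of these sums Fcgr2b made up 65.3 and 36.3 TPM in YFP+ libraries, against 402 and 434 TPM in YFP- libraries. Stab2 and Clec4g overlapped between the groups, and Oit3, Fcgr2b, Kdr and Bmp2 were lower in both YFP+ libraries. The part of these cell types in the falls was not tested. None of the 11 calls held under quantile normalization or cyclic loess, and 3 held under median-ratio scaling, those of C4b, Fcna and Cd93. Without YFP+ FM 2 of the 11 remained, without YFP- M 4 and without YFP- FM 3.

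**Figure D4:**
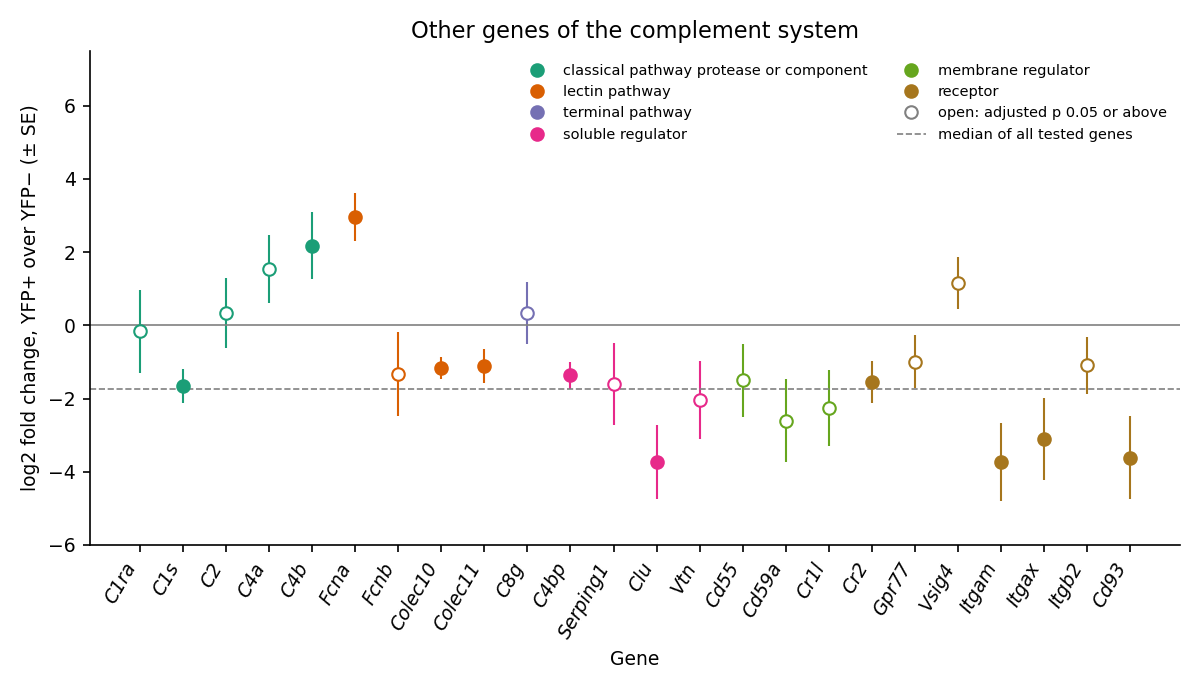
Log2 fold change, YFP+ over YFP- (points, with SE bars), of the 24 tested complement genes outside the 9 members, on the deposited TPM and coloured by role, with filled points for a limma adjusted p under 0.05 and a dashed line at the median of all tested genes (-1.73). On these values C4b and Fcna are filled above 0, and the 9 filled points below 0 are led by Clu at -3.73, with the signs of Colec11 and Cr2 turning under rescaling as stated in the text.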

How the data were processed

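RNA sequencing of 4 libraries labelled as sorted liver macrophages was analysed, 2 YFP+ and 2 YFP-, grouped by the genotype label. Per the file headers, the authors deposited read coverage, FPKM and TPM per gene. The submitters' processing notes name HISAT and, as builds, GRCm38 and mm10. The program behind the tables and the strandedness: not given in the sources used here.

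Rows of one name were summed. The 12251 genes that reached 1 TPM in 2 or more libraries entered a limma fit (version 3.58.1, R 4.3.3) of log2(TPM + 1) on the YFP group alone, with empirical Bayes moderation along a mean trend. The fit was run on simulated data with normal noise at the variances that the fit itself estimated and no shift over all genes. Such data cannot show how the fit behaves on libraries that differ in content. The prior degrees of freedom of this fit were infinite, so each of its p-values rests on the variance trend over all genes and not on that gene's own spread. They were finite without the filter (24.0) and under quantile normalization (6.87), median-ratio scaling (20.1) and cyclic loess (5.56). There a gene's own spread also enters, so calls under these settings differ from the main ones in the error model too. Python 3.11.15, pandas 2.3.3 and NumPy 2.4.6 were used for the rest, and matplotlib 3.10.9 for plots. Of 42 other complement genes listed, 41 had a name, 3 by an older symbol; 1 further gene is not reported here. Named are all members, other complement genes that passed, up to 4 by role (with further genes for context), and the 3 nearest profiles, predicted genes skipped. The members and lists were chosen with earlier results of these data known.

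Alternatives were a pseudocount of 0.1, no filter, 5 TPM, quantile normalization, median-ratio scaling, cyclic loess, FPKM, the title start as a block and each library left out. Deviations of same-start libraries from group means did not correlate across genes (-0.011). Promoters are RefSeq's.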

Additional observations from a re-analysis of the deposited data

Results flagged for a closer look

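Cfb, C3 and C6 differed in direction between the title starts, 1 library of each group per start, so the difference between starts was not tested. The log2 difference, YFP+ minus YFP-, of Cfb was 2.51 for the M pair and -0.70 for the FM pair. For C3 it was 0.78 (M) and -2.72 (FM), and for C6 1.21 (M) and -2.18 (FM). All 3 genes were highest of all libraries in YFP- FM. That library also had the highest hepatocyte marker sum, 2107 TPM, against 328 to 1383 TPM in the others. Of these sums Ttr made up 1053 TPM in YFP- M and 830 TPM in YFP- FM. The markers differed: Alb, Serpina1a, Fgb and Cyp2e1 were highest in YFP- FM, Ttr and Apoa2 in YFP- M, and Apoa1 and Ahsg in YFP+ FM. The part of hepatocyte RNA in the values of Cfb, C3 and C6 was not tested.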

How the results depend on the processing

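Signs turned as follows, given as log2 fold changes. Under cyclic loess C1qa was -0.15, C1qb -0.24, C1qc -0.28 and C3 0.33. C3 was 0.24 and C6 0.081 under quantile normalization, and 1.26 and 1.78 under median-ratio scaling. C6 was 0.058 on FPKM and 0.088 without YFP+ FM, C3 0.76 and C6 0.64 without YFP- FM, and Cfb -0.94 without YFP- M. With 1 library left out Cfb ranged from -0.94 to 2.75, C3 from -2.71 to 0.76 and C6 from -1.61 to 0.64. The signs of Cfp and C3ar1 held under all 12 alternatives, and that of C5ar1 under 11, since it does not reach the 5 TPM filter. The 4 members called higher became 1, Cfp, with a pseudocount of 0.1, without a filter and with the title start as a replicate block. They became 1 under quantile normalization and cyclic loess, where C5ar1 was called and none of the 4, and 3 under median-ratio scaling, where of the 4 Cfp alone was called, beside Cfb and C5ar1. They ranged from 0 to 4 with 1 library left out. The 1 called lower became 0 without a filter, under quantile normalization, median-ratio scaling, cyclic loess, FPKM and the replicate block, and 0 to 1 with 1 library left out. The 11 other complement genes called became 6 with the 5 TPM filter, 2 under quantile normalization, 6 under median-ratio scaling, 1 under cyclic loess, 5 with the replicate block and 2 to 14 with 1 library left out. The difference of the Cfp to C1q ratio was 0.82 to 3.05 with 1 library left out. With a library left out, the lone library of a group is assumed to vary like the others. The labels do not say what same-start libraries share, so whether the block suits these data cannot be told. The causes were not tested.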
